A study of Mus musculus with 9 samples.

Results

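Late miRBase entries are mature miRNAs whose registry number was given late. They were taken here as every miRNA with an accession number from MIMAT0014000 upwards, leaving out the block MIMAT0016979 to MIMAT0017350, and with at least 1 count in any library. Of the 876 miRNAs listed in the series, 339 were such late entries, 439 had a number below MIMAT0014000 and are called older miRNAs, and 98 lay in the left-out block.

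miRNAs are cut from hairpin precursors and guide Argonaute proteins to messenger RNAs, whose output they lower. miRBase is the registry of miRNA sequences, and its accession numbers rise with the date of submission. The miRNAs that were cloned first tend to be abundant and conserved between animals, whereas many later ones came from deep sequencing, and some registry entries are known to overlap genes of other small RNAs. A read of a fragment of such an RNA can then be counted as a miRNA.

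Serum was drawn from healthy male and female 129/SVj mice aged 2 to 9 months, with the serum of 3 mice combined in a pool. The RNA of each of the pools A, B and C was split over the 3 groups, which gave 3 libraries per group. Control libraries were made without depletion, beads-depleted libraries after biotinylated DNA probes paired with 5′ tRNA-half fragments had been pulled out with streptavidin beads, and RNase H-depleted libraries after RNase H had cleaved the RNA paired with such probes. The labels describe A, B and C as pools, while the methods speak of aliquots of a serum pool, so the spread between libraries may be technical, and p-values measure only that spread.

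The control libraries held between 205185 and 330676 miRNA counts, the beads-depleted libraries between 1822088 and 1995956, and the RNase H-depleted libraries between 1199 and 2040. Counts of all annotated small RNAs ran from 3904095 to 4920457, from 2796718 to 3538246 and from 47252 to 160581 in the same order. A share of 3 counts, used here as the smallest share that a library can show, was 0.000907% to 0.00146% of the miRNA counts in control, 0.000150% to 0.000165% after beads and 0.147% to 0.25% after RNase H. Values of the RNase H group therefore rest on far fewer reads. The files list accessions only and the RefSeq miRNA table used here lists names only, so members are called by accession, without function, sequence or position, and the labelled tissue was not checked against named marker miRNAs.

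The late entries were many but scarce. They made up 0.884%, 0.851% and 0.817% of the miRNA counts in control pools A, B and C, with Wilson 95% confidence intervals of 0.844% to 0.925%, 0.820% to 0.883% and 0.782% to 0.853%. After beads the share was 0.940%, 0.983% and 0.952%, with intervals of 0.926% to 0.954%, 0.969% to 0.996% and 0.938% to 0.966%. After RNase H it was 11.5%, 6.02% and 6.34%, with wide intervals of 10.2% to 13.0%, 5.05% to 7.16% and 5.09% to 7.86%. These intervals take account of counting error alone, and PCR copies could not be told from separate molecules. Between libraries of a group, the chi-squared value per degree of freedom over single miRNAs was 1.37 to 4.27 in control. It was 12.3 to 20.5 after beads and 2.70 to 6.66 after RNase H. Single miRNAs thus varied more than counting error gives, and counting intervals may be too narrow. All 3 libraries of each depleted group lay above all 3 control libraries, and the gap was slight for beads and wide for RNase H.

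The mean share was 0.851% ± 0.0333 (SD, n = 3) in control and 0.958% ± 0.0221 (SD, n = 3) after beads, a difference of 0.107 percentage points (two-sided exact permutation p = 0.1). After RNase H the mean was 7.96% ± 3.09 (SD, n = 3), a difference of 7.11 percentage points with the same exact permutation p = 0.1. This is the smallest p that 3 against 3 libraries allow, so no difference in a single value per library could pass 0.05. Both comparisons use the same control libraries.

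A few entries carried most of these counts. MIMAT0014943 and MIMAT0014944 together gave 66.9% to 68.8% of the late counts in the control libraries and 57.8% to 60.7% after beads. The 10 most abundant late entries of a library gave 90.5% to 91.7% in both groups. In the RNase H libraries the whole late count came from 14 entries.

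MIMAT0014943 was counted 633, 942 and 696 times in control pools A, B and C, 5782, 6309 and 5122 times after beads, and 8, 15 and 2 times after RNase H. Its share of miRNA counts was 0.280% to 0.309% in control, 0.281% to 0.316% after beads and 0.167% to 0.759% after RNase H. The ranges overlapped in both comparisons. In edgeR's quasi-likelihood test the log2 fold change of its level among miRNAs was 0.05 for beads (adjusted p = 0.735) and 0.60 ± 0.33 (SE) for RNase H (adjusted p = 0.285).

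MIMAT0014944 was as abundant as MIMAT0014943 outside the RNase H group. Its counts were 614, 955 and 664 in control, 4838, 5589 and 4907 after beads, and 144, 62 and 7 after RNase H. At the mean control share, 5.81, 5.63 and 3.42 counts would have been found in the RNase H libraries, so all 3 counted more, with the narrowest gap in pool C. Whether the 7 counts in pool C exceed 3.42 by more than counting error was not tested. The ratio of MIMAT0014944 to MIMAT0014943 counts was 0.954 to 1.01 in control, 0.837 to 0.958 after beads, and 18.0, 4.13 and 3.50 after RNase H. The last of these rests on 7 against 2 counts.

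Relative to all miRNAs, MIMAT0014944 rose after RNase H by 3.69 ± 0.34 (SE) on the log2 scale (edgeR adjusted p = 2.14e-07), and it kept an adjusted p of 0.0240 without pool C. The rise differed widely between pools A, B and C, with 144, 62 and 7 counts after RNase H. This SE comes from the test and does not describe that spread. Its log2 fold change for beads was -0.09 (adjusted p = 0.484). Its raw count was nevertheless lower with RNase H, with a sum of 213 against 2233 in control.

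MIMAT0020637 was rare in control, with 4, 14 and 9 counts. It had 178, 282 and 200 counts after beads and 70, 34 and 57 after RNase H, where miRNA reads in all were a small fraction of those in control. It was thus the one named entry whose raw count in each RNase H library exceeded that of the control library of its pool. It made up 0.221% to 0.498% of the late counts in control, 0.983% to 1.44% after beads, and 29.8%, 28.6% and 75% after RNase H.

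MIMAT0020637 rose in both comparisons, by 1.74 ± 0.27 (SE) on the log2 scale for beads (edgeR adjusted p = 9.47e-10) and by 9.69 ± 0.41 (SE) for RNase H (edgeR adjusted p = 2.09e-12). Its summed share of miRNA counts was 3.34 times the control share for beads (95% counting interval 2.27 to 5.10) and 897 times for RNase H (594 to 1403), the latter from 161 against 27 counts. It passed the RNase H count filter through the RNase H libraries alone, which makes a difference a condition of its being tested there.

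MIMAT0020637 was also set against other RNA classes of the same library. There were 1.13, 2.66 and 2.21 counts of it per 1000 piRNA counts in control, 4.33, 7.65 and 4.41 after beads, and 0.671, 1.01 and 0.960 after RNase H. Per 1000 rRNA counts the values were 1.41, 5.25 and 5.22 in control, 12.5, 25.6 and 13.1 after beads, and 18.5, 31.5 and 37.4 after RNase H. Against piRNA the RNase H libraries lay below the control libraries, and against rRNA both depleted groups lay above them.

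MIMAT0024861 had 1, 6 and 3 counts in control, 20, 24 and 24 after beads, and 4, 3 and 2 after RNase H. These low counts barely differed between control and RNase H, although the miRNA counts of the libraries did. Per 1000 rRNA counts the values were 0.353, 2.25 and 1.74 in control, 1.41, 2.18 and 1.58 after beads, and 1.06, 2.78 and 1.31 after RNase H, and the 3 ranges overlapped. In edgeR it rose after RNase H by 6.87 ± 0.64 (SE) on the log2 scale (adjusted p = 2.14e-07), and the summed share was 135 times that in control, with a wide counting interval of 48.7 to 371 from 9 against 10 counts. It too passed the filter through the RNase H libraries alone, and with any 1 pool left out it no longer passed.

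MIMAT0029894 had 151, 232 and 180 counts in control, 2708, 2824 and 2835 after beads, and 2, 1 and 3 after RNase H. Its share was 0.0702% to 0.0736% in control and 0.141% to 0.156% after beads, so the groups did not overlap. It rose for beads by 1.03 ± 0.10 (SE) on the log2 scale (edgeR adjusted p = 6.60e-22). For RNase H the summed share was 1.60 times the control share, and the counting interval of 0.586 to 3.51 spans both directions.

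MIMAT0014946 had 34, 52 and 31 counts in control, 775, 721 and 716 after beads, and 3, 0 and 0 after RNase H. It rose for beads by 1.38 ± 0.16 (SE) on the log2 scale (edgeR adjusted p = 3.99e-16). The increase of MIMAT0014856 was smaller. Its counts of 37, 69 and 62 in control and 543, 604 and 518 after beads gave a log2 fold change of 0.44 ± 0.15 (SE) with an edgeR adjusted p of 0.0153, which became 0.126 without pool A, 0.221 without pool B and 0.0590 in DESeq2. MIMAT0014856 was counted 0, 1 and 0 times after RNase H.

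MIMAT0031402 was the one late entry that passed the test with a lower level among miRNAs after beads. Its counts were 96, 163 and 118 in control, 741, 691 and 578 after beads, and 2, 0 and 2 after RNase H, so the raw count was higher after beads in every pool while the share was lower. On the log2 scale it fell by 0.45 (SE 0.13, edgeR adjusted p = 0.00183), and the adjusted p was 0.10 without pool B. With all annotated counts as library size its log2 fold change was 2.87.

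The share of late entries after RNase H came largely from 2 members. MIMAT0014944 and MIMAT0020637 gave 91.1%, 80.7% and 84.2% of the late counts in the RNase H libraries. Without both, a choice made after their values were seen, the late share was 0.546% to 0.582% in control, 0.671% to 0.688% after beads, and 1.03%, 1.16% and 1.00% after RNase H. The mean difference from control was then 0.118 percentage points for beads and 0.579 for RNase H, each with an exact permutation p of 0.1. The groups still did not overlap, while the RNase H difference was far smaller than with all members. These RNase H shares rest on only 21, 23 and 12 counts in pools A, B and C, and their counting error was not worked out. Without MIMAT0014944 alone it was 3.95 percentage points.

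By number range, 63 late entries were numbered MIMAT0014000 to MIMAT0016978, 25 MIMAT0017351 to MIMAT0021999, 35 MIMAT0022000 to MIMAT0026999 and 216 MIMAT0027000 or above. The first range held MIMAT0014943 and MIMAT0014944 and gave a mean of 0.642% of miRNA counts in control, 0.664% after beads and 4.10% after RNase H. The second held MIMAT0020637 and gave 0.0259%, 0.0381% and 3.32%. The third held MIMAT0024861 and gave 0.0178%, 0.0225% and 0.272%. The last range, with the most entries, gave 0.165%, 0.233% and 0.271%. In RNase H pools A, B and C the third range had only 4, 4 and 5 counts and the last range 5, 3 and 5. The last range was at 0.152% in RNase H pool B, below its 0.162% to 0.170% in the control libraries. Its RNase H mean therefore does not show a rise in every pool.

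Raw late counts were higher after beads and lower after RNase H. The summed counts were 1813, 2814 and 2032 in control, 18106, 19612 and 17341 after beads, and 235, 119 and 76 after RNase H. Within pools A, B and C this was 9.99, 6.97 and 8.53 times the control count for beads and 0.130, 0.0423 and 0.0374 times for RNase H. On the log2 scale the mean difference was 3.07 for beads and -4.08 for RNase H, each with an exact permutation p of 0.1.

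To see which class the late entries followed, the log2 ratio of the late count to the count of each other class was compared between groups. In the beads libraries the late entries moved much as the older miRNAs did, which had 9.38, 6.03 and 7.32 times their control count. The ratio of late to older counts was 1.13-fold that in control, a log2 difference of 0.17 (exact permutation p = 0.1, adjusted p = 0.127 over 14 ratios with the Benjamini-Hochberg method). Fragments of other small RNAs moved alike in that comparison. snoRNA fragments, from RNAs that guide the chemical modification of rRNA, had 10.2, 6.53 and 8.52 times their control count and piRNAs, which bind PIWI proteins in the germ line, had 11.6, 7.0 and 11.1 times. snRNA fragments, from the RNAs of the spliceosome, had 12.2, 7.58 and 12.3 times.

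The late count relative to snoRNA was 1.02-fold that in control for beads (exact permutation p = 0.9, adjusted p = 0.900), relative to piRNA 0.868-fold (exact permutation p = 0.3, adjusted p = 0.323) and relative to snRNA 0.805-fold (exact permutation p = 0.1, adjusted p = 0.127). Relative to rRNA it was 1.48-fold (exact permutation p = 0.2, adjusted p = 0.233). tRNA counts, the target of the probes, were 0.343, 0.162 and 0.451 times the control count, and the late count relative to tRNA was 28.7-fold higher. All of these classes except tRNA thus had higher counts after beads, as the late entries did.

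With RNase H the classes moved apart. The older miRNAs had 0.00888, 0.00566 and 0.00455 times their control count, and the left-out block 0.00570, 0.0106 and 0.00728 times, both well below the late entries in every pool. The ratio of late to older counts was 9.64-fold that in control, a log2 difference of 3.27, and the ratio to the left-out block was 7.74-fold (each with an exact permutation p of 0.1 and an adjusted p of 0.127). tRNA counts were 0.0127, 0.00230 and 0.00467 times the control count.

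The raw counts of the remaining RNA classes fell less with RNase H than the late count, or rose. Raw counts also depend on how each library was sequenced, so they do not measure the molecules kept. snoRNA counts were 0.202, 0.0559 and 0.0495 times those in control, the nearest of all classes to the late entries, and the late to snoRNA ratio was 0.716-fold that in control. snRNA counts were 0.685, 0.141 and 0.232 times and rRNA counts 1.33, 0.404 and 0.885 times those in control, with late ratios of 0.209-fold and 0.0755-fold. piRNA counts were 29.6, 6.37 and 14.6 times those in control, and the late to piRNA ratio was 0.00421-fold. The exact permutation p was 0.1 for each of these ratios (adjusted p = 0.127).

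These ratios also turned on the pair named above. Without MIMAT0014944 and MIMAT0020637, the log2 difference of the late to older ratio after RNase H was 1.03 and that of the late to snoRNA ratio was -2.73, each with an exact permutation p of 0.1. These remaining entries had 21, 23 and 12 counts in RNase H pools A, B and C, and their log2 difference relative to older miRNAs was 0.98, 1.14 and 0.96. Relative to tRNA it was 0.47, 2.44 and 0.92, smaller than that to the older miRNAs in pools A and C and larger in pool B, so neither class was nearer in every pool. Whether reads of single late entries are fragments of other RNAs was not tested.

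**Figure D1:**
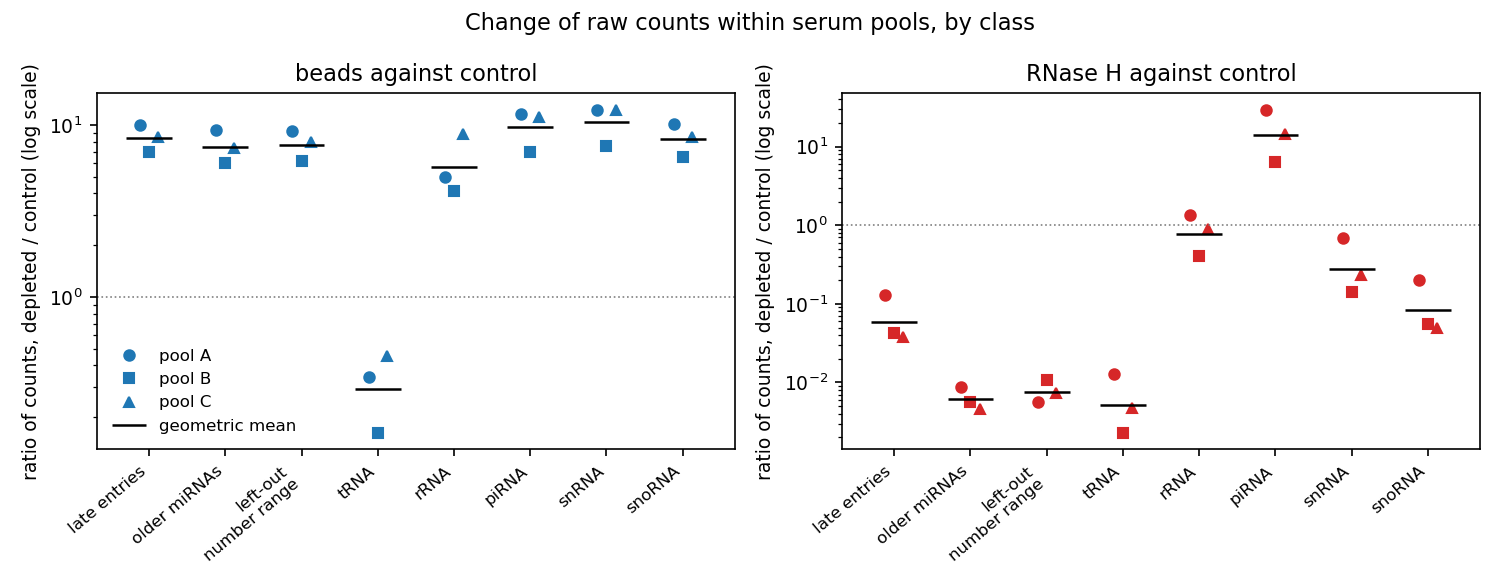
Count in the depleted library divided by the count in the control library of the same pool, for late entries, older miRNAs, the left-out block and 5 other RNA classes, on a log axis, with 1 point per pool and a panel per depletion. With beads the late entries (6.97 to 9.99) lie among the older miRNAs, snoRNA, snRNA and piRNA; with RNase H they (0.0374 to 0.130) lie above the older miRNAs (0.00455 to 0.00888) and beside snoRNA (0.0495 to 0.202).

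Many more late entries were listed after beads. A late entry with at least 1 count was found 73, 94 and 85 times in control, 199, 209 and 204 times after beads, and 9, 9 and 8 times after RNase H. Their means of 84 ± 10.5 (SD, n = 3) in control and 204.0 ± 5.0 (SD, n = 3) after beads differed by 120.0 entries, and the mean of 8.67 ± 0.577 (SD, n = 3) after RNase H was lower by 75.3 (each with an exact permutation p of 0.1). They were 18.1% to 21.2% of all miRNAs listed in control, 30.4%, 31.1% and 30.5% after beads, and 8.04%, 7.96% and 8.16% after RNase H.

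These numbers depended on how depth was matched. When the libraries of a comparison were thinned to equal miRNA counts, 81.2 ± 0.652 late entries were expected after beads and 74.8 ± 1.67 in control (SD, n = 3), and they were 19.3% against 18.6% of the miRNAs listed. The groups still did not overlap (exact permutation p = 0.1). For RNase H there were 7.57 ± 0.534 late entries after RNase H and 4.71 ± 0.0622 in control (SD, n = 3), or 7.90% against 5.24% of the miRNAs listed. At equal counts of all annotated RNAs the means were 195.0 after beads against 67.4 in control, and 7.27 after RNase H against 7.5 in control.

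**Figure D2:**
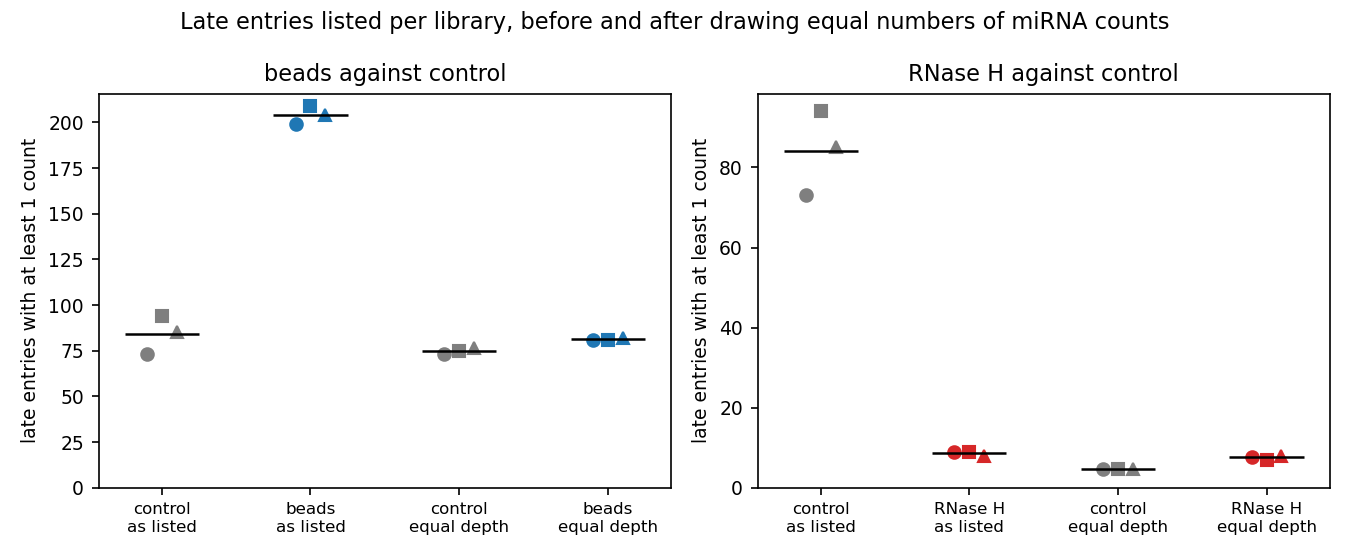
Number of late entries with at least 1 count in each library, both as counted and after thinning the libraries of a comparison to equal miRNA counts. As counted the means are 84 in control, 204.0 after beads and 8.67 after RNase H; thinned they are 74.8 against 81.2 for beads and 4.71 against 7.57 for RNase H.

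The listing of a late entry was seldom repeated. Of the 152 late entries listed in any control library, 35 (23.0%) were listed in all 3, and of the 310 listed after beads, 115 (37.1%) were. Among older miRNAs these shares were 70.9% of 364 and 81.4% of 435. A late entry that was listed had a median of 1 or 2 counts in the control libraries and of 3 counts in each beads library, against 10.5 to 15 and 37 to 45 counts for older miRNAs. Of the 339 late entries, 133 (39.2%) occurred in 1 library only and 92 (27.1%) had 1 count in all. Entries with 10 or more counts over all libraries numbered 87 of the late (25.7%) and 342 of the older (77.9%) miRNAs.

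Beads libraries alone listed 185 late entries (54.6% of them) and 75 older miRNAs (17.1%). A further 28 late entries were listed in control libraries and in no other. With at least 4 counts required, a mean of 85.0 late entries was listed after beads, 27.0 in control and 3.0 after RNase H. The entries MIMAT0014943, MIMAT0014944, MIMAT0020637, MIMAT0024861 and MIMAT0029894 had a count in all 9 libraries, as did 66 older miRNAs.

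After RNase H 14 late entries were listed, 5 of them in all 3 libraries. MIMAT0014943 and MIMAT0014944 were the 2 for which at least 3 counts were expected in every RNase H library at the mean control share. A loss of any other late entry, beyond the loss of miRNA counts in general, was therefore not detectable at this depth.

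The test of each miRNA relative to all miRNAs was run over all entries that passed the count filter. For beads 307 miRNAs were tested and 82 (26.7%) were called at an edgeR adjusted p under 0.05, of which 51 were raised (16.6%) and 31 lowered (10.1%). Of the 339 late entries, 33 passed the filter and 5 were called (15.2%). The raised ones were MIMAT0020637, MIMAT0014946, MIMAT0029894 and MIMAT0014856, and the lowered one was MIMAT0031402. The median log2 fold change of the 33 was 0.14, beside 0.04 over all miRNAs tested, and 9 of the 33 had an unadjusted p under 0.05. Of the 33, 21 passed the filter on their control libraries, and these included all 5 that were called (23.8%), beside 69 of all 244 such miRNAs (28.3%). The difference between these shares was not tested.

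For RNase H 138 miRNAs were tested and 16 (11.6%) were called by edgeR, of which 9 were raised (6.52%) and 7 lowered (5.07%). Only 10 late entries passed the filter, and MIMAT0020637, MIMAT0024861 and MIMAT0014944 were called, all raised. Since 2 of these passed through the RNase H libraries alone, the count of 3 is not set against the background. Among the 8 late entries that passed on their control libraries 1 was called, MIMAT0014944, and among all 127 such miRNAs 11 were (8.66%). The median log2 fold change of these 8 was 0.58, beside -0.27 over the 127. Apart from MIMAT0014943 and MIMAT0014944, each of the 8 had at most 6 counts summed over the RNase H libraries. Their median is therefore uncertain, and its difference from the background was not tested. The median of all 10, which is 1.09, includes the 2 that had to be high to be tested.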

How the data were processed

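Small RNA libraries of serum RNA were made with the TruSeq kit, in 3 groups of 3 libraries. The authors removed adapters with Cutadapt 1.8.1, dropped reads shorter than 15 bases, filtered on quality (FASTX-Toolkit 0.0.14), and mapped perfect matches to GRCm38 with Bowtie 1.1.2. Reads were assigned to genes by position, with miRNAs from miRBase 20. The deposited values are raw counts, not normalized, one list of mature miRNAs and one of other small RNA sequences per library, each from 1 count, and a miRNA missing from a list was set to 0. Reads with a sequencing error or an untemplated end are lost by perfect matching, and a read at overlapping genes is counted by the authors' annotation.

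Counts of a library were summed per class. Values per library were compared with two-sided exact permutation tests over all 20 assignments (SciPy 1.17.1). Single miRNAs were tested over all that passed the filter with edgeR 4.0.16 (TMM, filterByExpr, quasi-likelihood test, sum of miRNA counts as library size, Benjamini-Hochberg adjustment, threshold 0.05). DESeq2 1.42.0, other filters and library sizes, expected detection at equal depth, and leaving out each pool were alternatives. The code was tested on simulated data. Named entries are the 5 with the highest mean share in each group, every late entry called, and those counted in all 9 libraries. The members and lists were chosen with earlier results of these data known. Planned lists by seed, by position in other RNA genes and by host intron, and the marker check, need names or sequences and are not used here.

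The pools pair the libraries, since the labels name the pool of each library and the study describes each RNA sample as split over the groups. Deviations from the group mean of log2 miRNA levels correlated between control and beads libraries with r = 0.161, 0.049 and 0.032 in pools A, B and C, and between control and RNase H libraries with r = -0.093, 0.021 and 0.062.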

Additional observations from a re-analysis of the deposited data

How the results depend on the processing

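Directions and calls held in most alternatives. After thinning to equal miRNA counts the RNase H difference turned to 2.86 more late entries and to 2.66 percentage points more of the miRNAs listed. The log2 difference of the late to snoRNA ratio for beads ran from -0.014 to 0.049 with each pool left out. With all annotated counts as library size, edgeR called 332 miRNAs and 43 late entries for beads and 51 miRNAs for RNase H, since the general gain or loss of miRNA reads is then part of each fold change. DESeq2 called 27 miRNAs for RNase H. With each pool left out, 3 to 5 late entries were called for beads, the lowest number without pool B, and 65 to 75 miRNAs in all. For RNase H 2 late entries were called each time, and 4 to 30 miRNAs, namely 8 without pool A, 30 without pool B and 4 without pool C. An entry that passes the filter through the RNase H libraries alone, as MIMAT0020637 did in the main test, has to be high to be tested. The late entries called in the alternatives were not set against the number tested, so these counts say nothing of late entries as a group.

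With the pool as a block, the count filter was that of the main test. Of the 307 miRNAs tested for beads edgeR called 91, and 5 of the 33 late entries among them. Of the 138 tested for RNase H it called 12, and 3 of the 10 late entries among them. Of these 3, 2 passed the filter through the RNase H libraries alone. The paired differences in late share were 0.107 and 7.11 percentage points, each with an exact sign-exchange permutation p of 0.25, the smallest that 3 pairs allow, and the block changed no call of a late entry.

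The median log2 fold change of late entries was -0.98 for beads in DESeq2, and for RNase H -1.23 without a count filter and -0.38 with all counts as library size. DESeq2 was run without the count filter. Its median thus covers every late entry with a count in the compared libraries, not the 33 of the main beads test. With all counts as library size, log2 fold changes for RNase H were -0.75 for MIMAT0014943, -1.03 for MIMAT0029894 and -1.05 for MIMAT0031402, and for beads 3.24 for MIMAT0014944, 3.16 for MIMAT0024861 and 2.87 for MIMAT0031402. MIMAT0014856 was at 0.0898 for RNase H in DESeq2. With each pool left out, values for RNase H ran from -7.64 to 0.48 for MIMAT0014856, from -0.20 to 0.93 for MIMAT0014943, from -7.39 to 2.41 for MIMAT0014946, from -0.19 to 0.84 for MIMAT0029894 and from -0.20 to 1.12 for MIMAT0031402. For beads they ran from -0.0017 to 0.10 for MIMAT0014943, from -0.14 to 0.0047 for MIMAT0014944 and from -0.27 to 0.43 for MIMAT0024861. None of the reversed single entries was called in the main test apart from MIMAT0031402 for beads. With all counts as library size, the general gain or loss of miRNA reads is part of each value. The cause of the other reversals was not tested. The RNase H libraries hold too few miRNA counts to place most late entries, and with no reads or sequences at hand, counts at overlapping genes could not be divided.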

Other observations

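The entries below were picked after their values were seen. MIMAT0025146 had 43 counts in the beads library of pool A and 0 counts in each of the other 8 libraries. MIMAT0028042 had 9, 11 and 25 counts in the beads libraries of pools A, B and C. It had 0 in every control and RNase H library. At its beads share, 1.61, 2.59 and 1.95 counts would be found in control pools A, B and C. Each is under the 3 counts used here as the smallest share that a library can show. Whether the 3 control libraries together fell short of the beads share was not tested. MIMAT0022358 was the only 1 of the 87 late entries with 10 or more counts whose count equalled that of another listed miRNA, the older MIMAT0002111, in all 9 libraries.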
